A study of Homo sapiens with 6 samples.

Results

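The AP-1 and immediate early factors FOS, FOSB, FOSL1, FOSL2, JUN, JUNB, JUND, EGR1, EGR3 and IER3 were taken by symbol from a table of 17039 genes, in which all 10 were present. Their expression was compared between 3 libraries of 231-BR cells and 3 libraries of MDA-MB-231 cells. MDA-MB-231 is a human triple-negative breast cancer line, and 231-BR is a variant of it that seeks the brain and serves as a model of breast cancer brain metastasis. Both lines were grown in DMEM with fetal bovine serum and penicillin-streptomycin, and the medium of the 231-BR cells also held G418, so that the drug and the line cannot be told apart. MDA-MB-231 is called parental below, although its cells came from a repository and the 231-BR cells from another laboratory. Each is a single cultured line, and the series calls its samples independent without saying whether they were separate cultures, so the spread between them may be technical.

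AP-1 is a dimer of leucine zipper proteins of the FOS and JUN families. JUN proteins can pair with each other or with a FOS protein, whereas FOS proteins need a JUN partner, and the dimer binds the site TGACTCA or its longer relative TGACGTCA. Many of these genes are immediate early genes, which serum, growth factors and stress switch on within minutes through MAP kinases and the serum response factor SRF, without new protein being made. FOSL1, which encodes FRA-1, is known for its high expression in triple-negative breast cancer lines and for its part in their invasion.

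Expression was given with 2 decimals as FPKM, that is, fragments of a gene scaled by the length of its transcript and by the mapped fragments of the library, and the depth of the libraries is unknown. The summed FPKM ran from 465020 to 472007 in the 231-BR libraries and from 486937 to 496420 in the parental libraries. Of 6 genes that MDA-MB-231 is known to express, VIM, CD44, EGFR, AXL, CAV1 and MSN, each had at least 29.97 FPKM in every library. Among 6 genes that they should lack or hardly express, CDH1 and KRT5 stayed at or below 0.03 FPKM and PGR at or below 0.07 FPKM. ESR1 had 0.84 to 1.08 FPKM in 231-BR cells and 0.74 to 0.83 FPKM in parental cells, GATA3 had 1.05 to 1.36 and 0.32 to 0.51 FPKM, and FOXA1 had 5.21 to 5.69 FPKM in 231-BR cells and 0.74 to 0.95 FPKM in parental cells. Of 11 brain, leukocyte and endothelial markers in the table, 9 stayed below 0.5 FPKM in every library, among them GFAP, RBFOX3 and PTPRC. The exceptions, MBP and CD68, were present in both lines and higher in 231-BR cells, so the markers summed to 103 to 106 FPKM there and to 75.2 to 79.2 FPKM in parental cells. Their part in the results below was not tested.

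Positive log2 fold changes mean more RNA in 231-BR cells. They are on the scale of log2(FPKM + 0.1), which understates the change of genes with a low FPKM. Genes whose mean FPKM reached 0.1 were tested with limma, and 9 of the 10 factors passed this filter. EGR3 did not pass it and is given by its values alone. Of the 13465 genes tested, 77.3% had an adjusted p under 0.05 (44.4% higher and 32.9% lower in 231-BR cells), so this threshold alone says little about a gene. A gene was called where the absolute log2 fold change was also over 1, which held for 15.2% of the genes tested, 10.9% as higher and 4.34% as lower in 231-BR cells. All 9 factors tested had an adjusted p under 0.05, with 6 higher and 3 lower in 231-BR cells. Of these, 4 were called, with JUND, EGR1 and FOSB higher and IER3 lower. For each of the 9, all libraries of one line lay above all libraries of the other, which held for 78.4% of all genes tested. The genes tested had a median log2 fold change of 0.08. In bulk RNA, a change in the number of cells that express a gene and a change in its RNA per cell cannot be told apart.

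**Figure D1:**
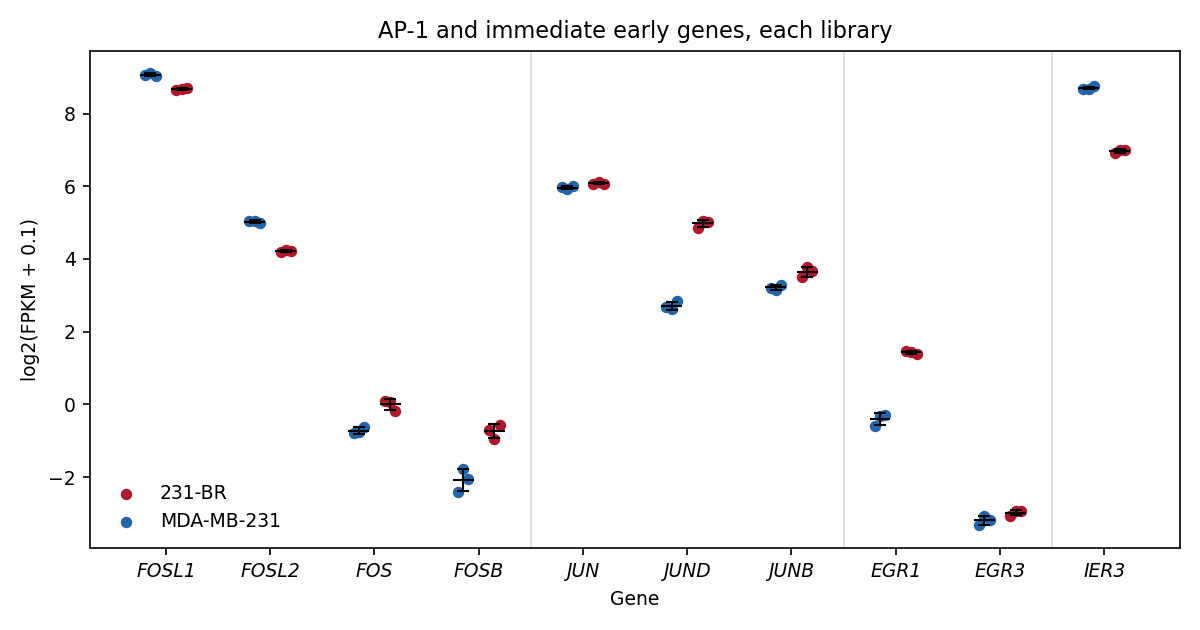
Expression of the 10 factors as log2(FPKM + 0.1) in each library, with 231-BR in red and MDA-MB-231 in blue. Points are libraries, horizontal lines are means and bars are SDs over 3 libraries. The red points of JUND and EGR1 lie well above the blue points, those of IER3 lie well below them, and those of JUN lie only slightly above.

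FOSL1 had the highest level of the 10 factors in both lines, and EGR3 had the lowest. FPKM is scaled by transcript length, so these levels can be set beside each other. In 231-BR cells the order of the mean levels was FOSL1, IER3, JUN, JUND, FOSL2, JUNB, EGR1, FOS, FOSB and EGR3. In parental cells FOSL2 and JUNB stood before JUND, and the order was otherwise the same. No factor overlapped with the next one in the order in the libraries of either line. Between the lines, JUND moved from the sixth place to the fourth. Ranked among all 17039 genes, FOSL1 lay at the percentile 99.1 in 231-BR cells and 99.3 in parental cells, whereas FOS, the founding member of the family, lay at 33.8 and 32.5.

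The JUN family changed unequally. JUND, a JUN protein that resting cells also express and that is known to restrain growth, had 29.1, 33.2 and 32.0 FPKM in the 231-BR libraries and 6.34, 6.05 and 7.03 FPKM in the parental libraries. Every 231-BR library was thus more than 4 times as high as every parental library. The mean rose from 6.47 ± 0.503 to 31.4 ± 2.14 FPKM (SD, n = 3 libraries), which is a log2 fold change of 2.26 (95% interval 2.12 to 2.41, adjusted p = 7.2e-10 from limma), or 4.80-fold. This was the largest absolute change among the factors, and under all settings tried it stayed between 2.12 and 2.32.

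JUN, which encodes the c-Jun protein, had 66.9, 68.9 and 67.2 FPKM in the 231-BR libraries and 62.8, 60.3 and 64.0 FPKM in the parental libraries. These ranges were close to each other without overlapping. The log2 fold change was 0.12 (95% interval 0.05 to 0.18, adjusted p = 0.0033), and this interval holds the median of all genes, 0.08. After median-of-ratios scaling the log2 fold change of JUN was 0.06 with an adjusted p of 0.098, so the increase depends on how the libraries are scaled. JUNB, which is known to oppose c-Jun in cell growth, had 11.2, 13.5 and 12.7 FPKM in the 231-BR libraries and 9.16, 8.82 and 9.66 FPKM in the parental libraries. JUNB rose by a log2 fold change of 0.43 (95% interval 0.28 to 0.58, adjusted p = 2.0e-04), which is short of a call. Within the gene model of JUNB, 259 exonic bases (14.2%) are also exonic in HOOK2 on the opposite strand, whose log2 fold change was 1.92. The protocol given for the libraries names no step that keeps the strand, so reads from these bases cannot be told apart.

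Added together, the JUN family had 112 ± 4.24 FPKM in 231-BR cells against 78.0 ± 2.75 FPKM in parental cells (SD, n = 3 libraries). JUN made up 62.5%, 59.6% and 60.0% of this sum across the 231-BR libraries, against 80.2%, 80.2% and 79.3% in parental cells. Its mean share was therefore 19.2 percentage points lower in 231-BR cells, with no overlap between the lines (exact 2-sided permutation test over 3 against 3 libraries, p = 0.1, the smallest that this design allows). The share of JUND was 28.1% ± 0.901 in 231-BR cells and 8.29% ± 0.372 in parental cells, while that of JUNB was 11.2% ± 0.653 and 11.8% ± 0.151 (SD, n = 3 libraries). The ratio of JUND to JUN within a library does not change where all genes of that library are scaled by 1 factor, although quantile normalization can change it. It was 0.434, 0.482 and 0.477 across the 231-BR libraries and 0.101, 0.1 and 0.11 in the parental libraries, and its mean was 4.47 times as high in 231-BR cells.

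The promoters of JUND and JUN, from the RefSeq promoter table of GRCh38.p14, are shown because, within the JUN family, these genes had the largest and the smallest change. Each covers 250 bases before and 50 bases after the start of the gene, 5′ to 3′ on the gene's strand. JUND lies on the minus strand (chr19:18281573-18281872), and so does JUN (chr1:58783998-58784297). The AP-1 site TGACTCA, its longer relative TGACGTCA, the variant TGACATCA of the latter, the box CCAAT and the CArG box were searched on both strands, and capitals mark what was found.
JUND: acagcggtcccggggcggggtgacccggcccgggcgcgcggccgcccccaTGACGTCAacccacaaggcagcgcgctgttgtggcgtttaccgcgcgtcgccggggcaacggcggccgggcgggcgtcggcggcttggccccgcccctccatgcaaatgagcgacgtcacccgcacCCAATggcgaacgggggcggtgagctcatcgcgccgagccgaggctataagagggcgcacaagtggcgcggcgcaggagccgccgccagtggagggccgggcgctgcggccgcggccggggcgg
JUN: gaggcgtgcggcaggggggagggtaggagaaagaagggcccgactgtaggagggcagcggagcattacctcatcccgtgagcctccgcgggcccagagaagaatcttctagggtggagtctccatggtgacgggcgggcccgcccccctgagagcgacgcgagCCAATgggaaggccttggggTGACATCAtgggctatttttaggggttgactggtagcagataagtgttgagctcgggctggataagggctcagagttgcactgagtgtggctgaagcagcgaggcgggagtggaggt

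The JUND promoter holds the full site TGACGTCA from position -200 to -193, counted from the start of the gene, and this site was present in 1.98% of 27305 promoters of the same length. The JUN promoter holds the variant TGACATCA from -67 to -60, present in 2.71% of promoters, and this is a place where c-Jun is known to act on its own gene. Both promoters hold a CCAAT box, as do 35.7% of promoters. With 77.0% G and C, the JUND promoter had more of these bases than 93.8% of promoters, and the JUN promoter, with 62.0%, had more than 59.3%. A match of letters is a description and shows no binding. The table matched 7 of the 10 factors, and FOSL1, EGR3 and IER3 were not matched. Among the others, FOSL2 has TGACTCA at positions 5 to 11, as do 4.92% of promoters in some place, and no TGACTCA was found in the windows of FOS, FOSB, JUNB, JUN, JUND or EGR1.

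JUND and JUNB both lie on chromosome 19, and so does FOSB. For the 40 expressed neighbours of JUND, taken as the 20 on either side whose mean FPKM reached 1, the median log2 fold change was 0.90, and 17 of them were called higher and 0 lower. Only 2 of these 40 neighbours had a larger fold change than JUND. For the 40 neighbours of JUNB the median was 0.80, with 14 called higher and 0 lower, and 35 of the 40 lay above JUNB itself. Over the 791 expressed genes of chromosome 19 the median was 0.06. The neighbours of the other factors had medians between -0.45 for FOSL2 and 0.20 for FOS, where the median over all 11086 placed genes was 0.06. IER3 fell further than every one of its 40 neighbours, whose median was -0.28, and 1 of the 40 neighbours of EGR1 lay above it. Whether the position of JUND plays a part in its change was not tested.

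**Figure D2:**
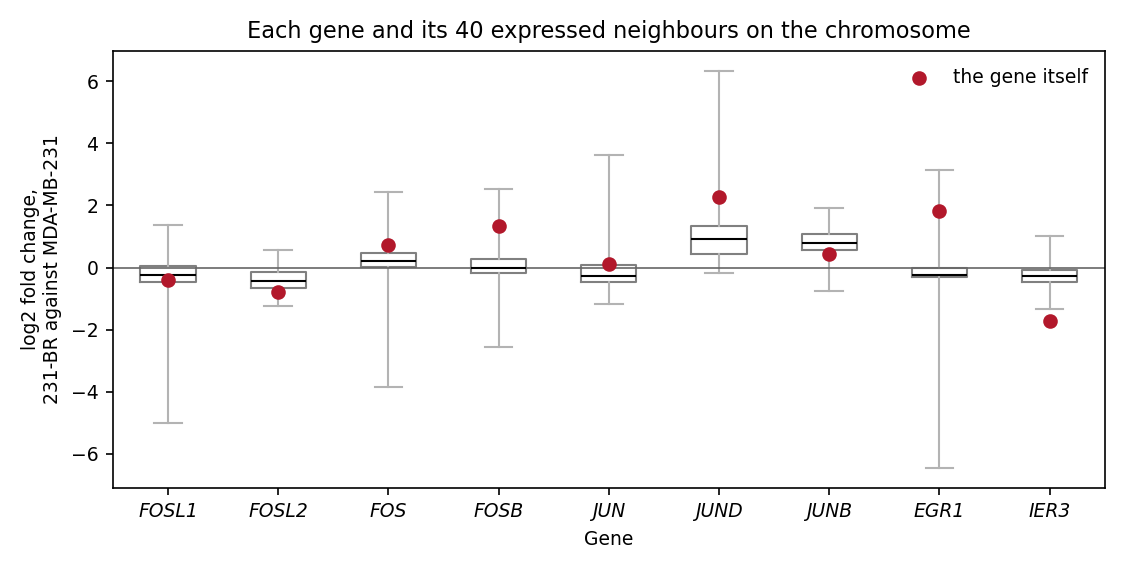
Log2 fold change of 231-BR against MDA-MB-231 cells for each of the 9 factors tested (red points) and for its 40 expressed neighbours on the chromosome. Boxes span the quartiles, black lines are medians and whiskers reach the lowest and highest neighbour. The boxes of JUND and JUNB lie above 0, with JUND above its box and JUNB below it.

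Within the FOS family the abundant members were lower in 231-BR cells and the scarce ones were higher. FOSL1 had 398, 406 and 416 FPKM in the 231-BR libraries and 537, 550 and 521 FPKM in the parental libraries. The lowest parental library was thus over 100 FPKM above the highest 231-BR library. FOSL1 fell by a log2 fold change of -0.40 (95% interval -0.46 to -0.34, adjusted p = 2.8e-07), which makes parental cells 1.32-fold higher and is short of a call. FOSL2, which encodes FRA-2, the closest relative of FRA-1, had 18.3, 18.9 and 18.4 FPKM in the 231-BR libraries and 33.1, 32.6 and 31.4 FPKM in the parental libraries. Its log2 fold change was -0.80 (95% interval -0.87 to -0.73, adjusted p = 8.5e-09), also short of a call. These 2 genes kept their direction and an adjusted p under 0.05 under all settings tried.

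FOS, which encodes the c-Fos protein, had 0.97, 0.95 and 0.79 FPKM in the 231-BR libraries and 0.48, 0.49 and 0.55 FPKM in the parental libraries. The level was below 1 FPKM in every library of both lines. The log2 fold change of FOS was 0.72 (95% interval 0.44 to 1.00, adjusted p = 3.7e-04), and after quantile normalization it was 0.27 with an adjusted p of 0.068. FOSB, a paralog of FOS that is known for its long-lived splice form in neurons, had 0.52, 0.42 and 0.57 FPKM in the 231-BR libraries and 0.09, 0.19 and 0.14 FPKM in the parental libraries. Its log2 fold change was 1.34 (95% interval 0.91 to 1.78, adjusted p = 1.1e-04), an interval that reaches below the fold needed for a call. At such levels the pseudocount weighs heavily, and FOSB was not called with a pseudocount of 1, where its log2 fold change was 0.40, or after quantile normalization, where it was 0.97. FOSB lies inside the span of ERCC1 on the opposite strand, which had 69.8 FPKM in 231-BR cells against 63.6 FPKM in parental cells. They share 0 exonic bases. As no step that keeps the strand is named, reads from unspliced ERCC1 RNA cannot be told apart from those of FOSB. Their part in the low FOSB values was not tested.

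FOSL1 accounted for 95.3%, 95.2% and 95.5% of the summed FPKM of the FOS family across the 231-BR libraries and for 94.1%, 94.3% and 94.2% in the parental libraries. The shares did not overlap, and they differed by 1.12 percentage points (exact 2-sided permutation test over 3 against 3 libraries, p = 0.1, the smallest possible). FOSL2 made up 4.35% ± 0.112 and 5.69% ± 0.105 (SD, n = 3 libraries). The share of FOS and FOSB together stayed below 1% in every library. The family sum was 569 ± 14.9 FPKM in parental cells and 426 ± 8.83 FPKM in 231-BR cells (SD, n = 3 libraries), opposite to that of the JUN family. The summed FOS family RNA was 3.90, 3.69 and 3.89 times that of the JUN family across the 231-BR libraries and 7.29, 7.76 and 6.86 times in the parental libraries. This ratio was 1.91 times as high in parental cells, without overlap (exact 2-sided permutation test, p = 0.1). Adjusted over the 3 such tests, each p was 0.1.

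**Figure D3:**
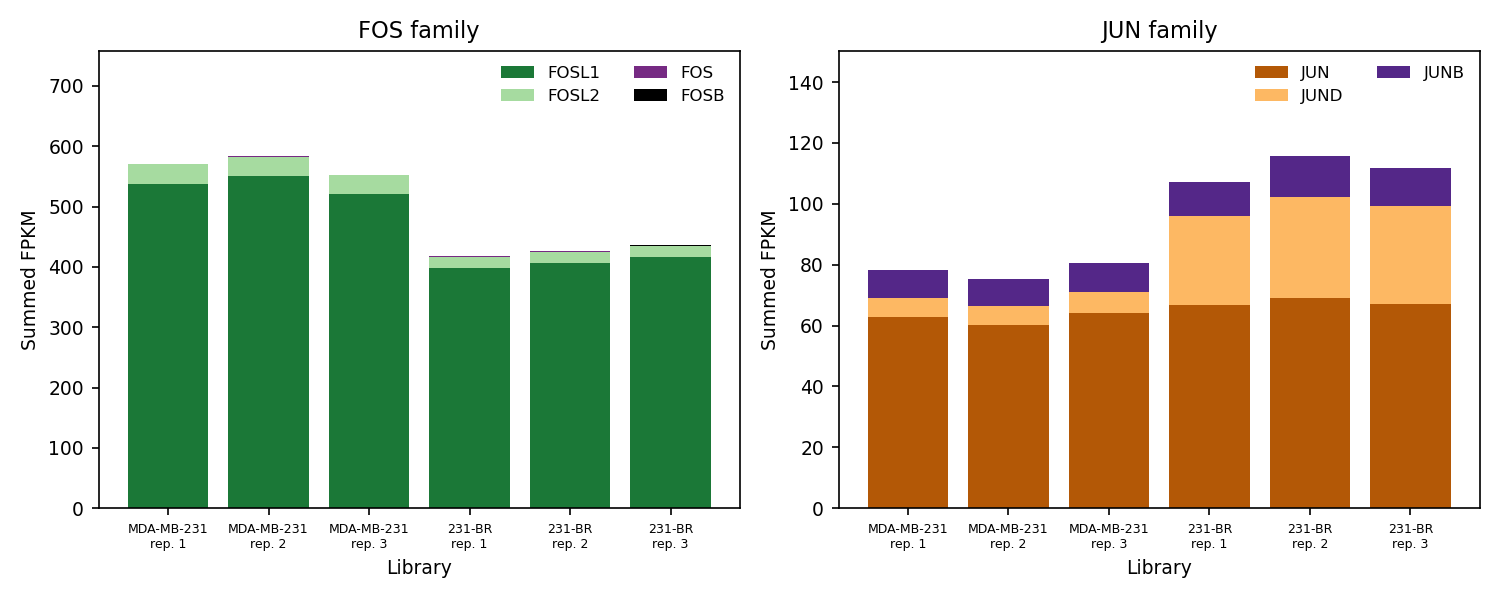
Summed FPKM of the FOS family (left) and of the JUN family (right) in each library, with 1 colour for each gene. FOSL1 fills most of the left bars, which are lower in 231-BR cells, and the right bars are higher in 231-BR cells, with most of the gain in JUND.

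EGR1 and EGR3 encode zinc finger factors that bind GC-rich sites and are induced by growth factors along with FOS. EGR1 had 2.67, 2.63 and 2.50 FPKM in the 231-BR libraries and 0.56, 0.70 and 0.72 FPKM in the parental libraries. All 231-BR libraries were above 2 FPKM and all parental libraries below 1 FPKM. The mean rose from 0.660 ± 0.0872 to 2.60 ± 0.0889 FPKM (SD, n = 3 libraries), which gives a log2 fold change of 1.83 (95% interval 1.60 to 2.07, adjusted p = 1.1e-07). With a pseudocount of 1 it was 1.12 and was still called. EGR3 was hardly detected, with 0.02, 0.03 and 0.03 FPKM in the 231-BR libraries and 0.00, 0.02 and 0.01 FPKM in the parental libraries. The lines met at 0.02 FPKM, and steps of 0.01 FPKM are the smallest the table can show, so no difference in EGR3 was detectable.

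The other members of the EGR family, EGR2 and EGR4, were also below 0.1 FPKM in every library. EGR2 had 0.0833 ± 0.0115 FPKM in 231-BR cells against 0.00667 ± 0.00577 FPKM in parental cells (SD, n = 3 libraries), and EGR4 was listed at 0 in 4 of the 6 libraries. Both were under the filter. NAB1 and NAB2 encode proteins that bind EGR factors and repress their targets. NAB1 fell from 15.7 ± 1.15 to 6.69 ± 0.0700 FPKM (SD, n = 3 libraries), which gives a log2 fold change of -1.22 (adjusted p = 1.8e-08), whereas NAB2 had 4.92 and 4.40 FPKM in 231-BR and parental cells, a log2 fold change of 0.16 (adjusted p = 0.026) that passed 0.05 without 231-BR library 1 or 3 or without parental library 1 or 2, with adjusted p from 0.051 to 0.087, and whose sign turned after quantile normalization (-0.07).

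The EGR1 promoter (chr5:138465229-138465528 of GRCh38.p14, plus strand, RefSeq) is printed because EGR1 is a textbook target of SRF and was called. It covers 250 bases before and 50 bases after the start, and capitals mark the CArG boxes, the sites of SRF.
EGR1: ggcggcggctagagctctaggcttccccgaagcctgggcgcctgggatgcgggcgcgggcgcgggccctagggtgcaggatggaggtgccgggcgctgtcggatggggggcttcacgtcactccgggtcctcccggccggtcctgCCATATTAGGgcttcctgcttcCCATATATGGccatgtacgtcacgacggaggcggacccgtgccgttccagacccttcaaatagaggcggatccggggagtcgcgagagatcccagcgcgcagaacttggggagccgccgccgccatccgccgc

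It holds 2 CArG boxes, CCATATTAGG from -105 to -96 and CCATATATGG from -83 to -74. A CArG box was present in 1.29% of promoters, and none was found in the windows of FOS, FOSB, FOSL2, JUN, JUNB or JUND. Sites more than 250 bases before the start were not searched, so these genes may hold CArG boxes further out. SRF itself had 39.3 ± 0.468 FPKM in 231-BR cells against 29.1 ± 0.834 FPKM in parental cells (SD, n = 3 libraries), which gives a log2 fold change of 0.43 (adjusted p = 4.0e-07).

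IER3 encodes a small membrane protein that is known to affect cell survival and is induced by growth factors, stress and NF-kB. It had 120, 128 and 128 FPKM in the 231-BR libraries and 409, 411 and 430 FPKM in the parental libraries. In every parental library it was more than 3 times as high as in any 231-BR library. The mean was 126 ± 4.39 FPKM in 231-BR cells and 416 ± 11.6 FPKM in parental cells (SD, n = 3 libraries), which gives a log2 fold change of -1.73 (95% interval -1.80 to -1.66, adjusted p = 3.8e-11), or 3.32-fold higher in parental cells. This was the only factor called as lower, and under all settings tried its log2 fold change stayed between -1.79 and -1.61. In the gene model of IER3, 26.5% of the exonic bases are shared with the antisense gene IER3-AS1. Of its namesakes IER2 and IER5, which are immediate early genes but no relatives in sequence, IER2 rose from 33.5 ± 1.43 to 48.4 ± 0.969 FPKM and IER5 from 25.9 ± 1.21 to 39.6 ± 1.48 FPKM (SD, n = 3 libraries). Their log2 fold changes were 0.53 and 0.61 (adjusted p = 2.8e-07 and 3.1e-07), opposite in sign to that of IER3. IER2 is among the 40 expressed neighbours of JUNB, whose median log2 fold change was 0.80. Whether its position plays a part was not tested.

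**Figure D4:**
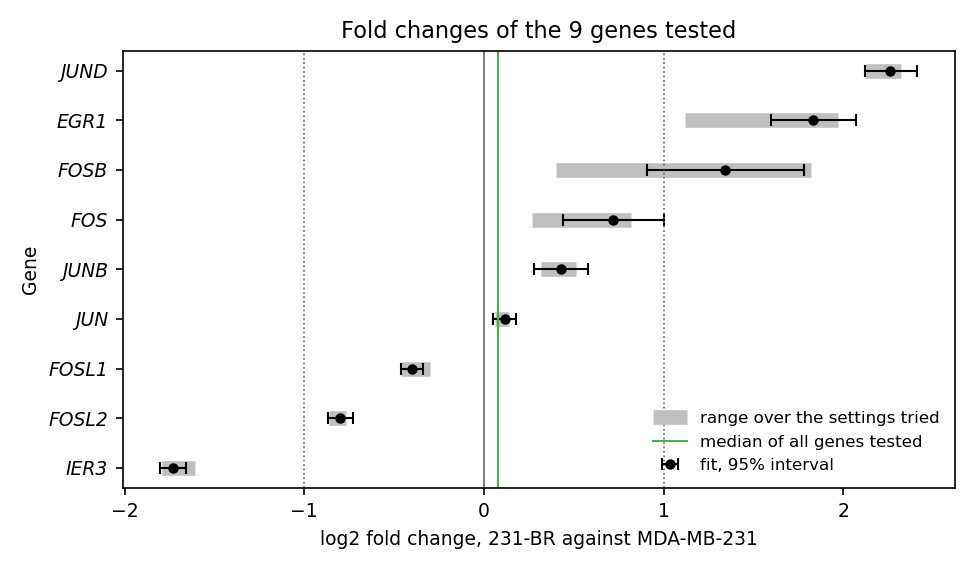
Log2 fold change of 231-BR against MDA-MB-231 cells for the 9 factors tested. Points and bars are the fit with its 95% interval, grey bands are the range over the settings tried, dotted lines mark the fold needed for a call and the green line marks the median of all genes tested, 0.08. JUND and EGR1 lie right of the dotted line at 1 with their bands, the band of FOSB crosses it, and IER3 lies left of the line at -1.

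Other genes of the pathway were described from 4 further lists. These were chosen with earlier results of these data known, so their shares of called genes are descriptions and no measure of enrichment. Of 34 other immediate early genes, 31 passed the filter, and at an adjusted p under 0.05 there were 23 higher and 8 lower in 231-BR cells. Among them 9 were called higher and 5 lower (45.2%, against 15.2% of all genes tested), and their median log2 fold change was 0.44, against 0.08. The largest increases were in DUSP2, a phosphatase of MAP kinases, with a log2 fold change of 2.15 (adjusted p = 2.1e-07), in the kinase SGK1 with 1.81 (adjusted p = 8.0e-11) and in the factor KLF2 with 1.5 (adjusted p = 1.6e-09). ZFP36L1, which destabilizes AU-rich mRNAs, and the nuclear receptor NR4A2 followed with 1.37 and 1.25. DUSP2 had 2.19 ± 0.287 FPKM in 231-BR cells against 0.417 ± 0.0723 FPKM in parental cells (SD, n = 3 libraries). The largest decreases were in BTG2, an inhibitor of proliferation, with -1.69 (adjusted p = 2.5e-05), in NAB1 with -1.22 and in KLF10, a factor induced by TGF-beta, with -1.21 (adjusted p = 8.6e-10). CSRNP1 had -1.10, and HBEGF, a ligand of the EGF receptor, had -1.09. BTG2 was at most 0.35 FPKM in any library and passed the filter only through parental cells, with a mean of 0.327 FPKM there against 0.0333 FPKM in 231-BR cells. With pseudocounts of 0.01 and 1 its log2 fold change was -3.13 and -0.36, so its place in this order depends on the pseudocount. The immediate early genes thus included members in both directions, as did the factors.

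A further list held 23 leucine zipper factors of the ATF, CREB, MAF, BATF and JDP type. Of the 21 tested, 6 had an adjusted p under 0.05 as higher and 10 as lower in 231-BR cells, 2 were called higher and 1 lower (14.3%, against 15.2% of all genes), and the median log2 fold change was -0.23. JDP2, which pairs with JUN proteins and represses AP-1 sites, rose from 4.21 ± 0.111 to 9.67 ± 0.808 FPKM (SD, n = 3 libraries), which gives a log2 fold change of 1.18 (adjusted p = 7.5e-08). BATF2, known from macrophages, rose with a log2 fold change of 1.5 but stayed below 0.7 FPKM in every library. CREM, a factor of the cAMP response, fell from 26.3 ± 0.224 to 12.6 ± 0.888 FPKM (SD, n = 3 libraries), which gives a log2 fold change of -1.06. ATF3, a JUN partner induced by stress, had a log2 fold change of 0.53 (adjusted p = 0.0013), or 0.15 (adjusted p = 0.23) after quantile normalization.

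Upstream of the factors, 35 of 36 listed MAP kinases, their activators and SRF or MEF2 cofactors were tested. With an adjusted p under 0.05, 14 were higher and 15 lower in 231-BR cells. Called genes numbered 4 higher and 1 lower, a share of 14.3%, close to the 15.2% among all genes tested. Their median log2 fold change, 0.05, was close to that of all genes. MAPK13, the p38 kinase delta, had the largest change of the list and fell from 8.63 ± 0.0751 to 0.890 ± 0.0781 FPKM (SD, n = 3 libraries), which gives a log2 fold change of -3.14 (adjusted p = 2.4e-10). The p38 kinase beta, MAPK11, its activator MAP2K6, the kinase RPS6KA5 and the factor MEF2C were called higher, with log2 fold changes of 1.23, 1.56, 1.22 and 1.72. With a pseudocount of 1 none of these 4 was called, and MAP2K6 stayed below 0.7 FPKM in every library. MAP2K6 passed the filter only through 231-BR cells, with a mean of 0.437 FPKM there against 0.0767 FPKM in parental cells. MAPK8, the first of the kinases named for phosphorylating c-Jun, had 32.9 FPKM in 231-BR cells against 21.1, with a log2 fold change of 0.64 (adjusted p = 1.8e-08). The ERK kinase MAPK3, named with MAPK8 after their values were seen, had a log2 fold change of 0.57 (adjusted p = 2.5e-07).

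The fourth list held 28 genes with AP-1 sites known from textbooks, of which 26 were tested. Of these, 8 had an adjusted p under 0.05 as higher and 15 as lower in 231-BR cells, 4 were called higher and 6 lower (38.5%, against 15.2% of all genes), and the median log2 fold change was -0.41. MMP1, the interstitial collagenase, went against the median of its list with a log2 fold change of 5.51 (adjusted p = 3.2e-15), at 1960 ± 37.0 FPKM in 231-BR cells and 43.0 ± 0.722 FPKM in parental cells (SD, n = 3 libraries). The other genes called higher were MMP13, SPP1 and CCL2, each at most 0.53 FPKM in any library. SPP1 and CCL2 passed the filter only through 231-BR cells, with means of 0.187 and 0.257 FPKM there against 0.0333 and 0 FPKM in parental cells. Their being tested thus depended on their level in 231-BR cells. SPP1 fell under the filter without 231-BR library 1 or 2, and CCL2 without 231-BR library 2. CCL2 was listed at 0 in every parental library and in 1 of the 231-BR libraries, and its adjusted p rose from 0.03 to between 0.063 and 0.095 without 231-BR library 1 or without any 1 of the parental libraries, and to 0.07 with no filter and 0.086 with eBayes without trend. The lines overlapped for SPP1, whose adjusted p rose from 0.017 to 0.059 and 0.061 without parental library 1 or 3. The largest decreases were in the chemokine CXCL8 and the cytokines IL6 and IL11, with log2 fold changes of -3.81, -3.64 and -2.25 (adjusted p = 6.8e-11, 6.2e-09 and 4.5e-11). VEGFA, the endothelial growth factor, followed with -2.09 (adjusted p = 9.3e-11). VEGFA had 12.7 ± 0.793 FPKM in 231-BR cells against 54.4 ± 1.07 FPKM in parental cells (SD, n = 3 libraries). These counts describe a list chosen with earlier results of these data known. Whether the factors act on its genes in these cells was not tested.

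**Figure D5:**
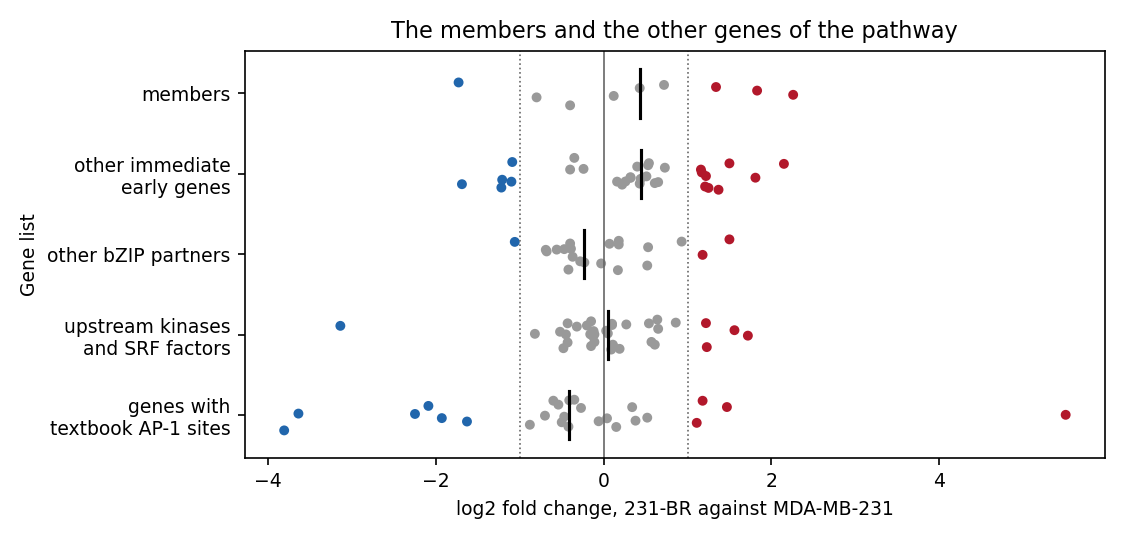
Log2 fold change of 231-BR against MDA-MB-231 cells for the genes tested in the list of factors and in the 4 further lists. Each point is a gene, red above 1 and blue below -1, dotted lines mark the fold needed for a call and black bars are medians. The medians run from -0.41 for the genes with AP-1 sites to 0.44 for the other immediate early genes, and each list has genes on both sides.

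Outside the factors, the genes whose pattern over the 6 libraries was nearest to that of JUND were BEND4, FZD4 and SLC25A21. The measure was the Euclidean distance between the log2(FPKM + 0.1) values after each gene was centred on its own mean, and it was 0.165, 0.165 and 0.175. Their log2 fold changes were 2.28, 2.27 and 2.22, against 2.26 for JUND. As the libraries of a line varied little, nearness by this measure mostly restates a like fold change. FZD4 had means of 8.16 and 1.61 FPKM in 231-BR and parental cells, and SLC25A21 had 2.24 and 0.403 FPKM. BEND4 averaged 0.387 FPKM in 231-BR cells and was listed at 0 in parental cells, so that it passed the filter only through 231-BR cells and its distance depends on the pseudocount. They lie on chromosomes 4, 11 and 14, away from JUND.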

How the data were processed

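Poly(A) RNA of the 231-BR and MDA-MB-231 lines (3 libraries each) was sequenced with paired reads on a BGISEQ-500 instrument. The authors filtered the reads with SOAPnuke, mapped them with HISAT2 (2.0.4) and, against a gene set, with Bowtie2 (2.2.5), and deposited FPKM values. The versions are from the submitters' processing notes, which also name GRCh38.p12, and the program that computed the FPKM is not given in the sources used here. Rounding to 2 decimals bears most on scarce genes. In 1 label field the number in the name of the line changes from replicate to replicate, so titles were used for grouping. 

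The factors and the gene lists were chosen with earlier results of these data known. For genes whose mean FPKM reached 0.1, the values log2(FPKM + 0.1) were tested with R 4.3.3 and limma 3.58.1 (a term for the line, eBayes with trend, Benjamini-Hochberg adjustment over all 13465 genes). Read counts were not used here, so the study's count test was not run. The fit was checked on simulated data. Shares and ratios were compared with exact permutation tests (scipy 1.17.1), and figures were drawn with matplotlib 3.10.9. Gene models came from GENCODE release 29 (GRCh38), and gene order and promoters from RefSeq (GRCh38.p14). Besides all factors, the text names from each list at most 5 called genes in each direction, partners, paralogs or namesakes of a factor, and the 3 genes nearest in pattern to the factor with the largest change. Some single results are left out here. SRF, NAB1, NAB2, ATF3, IER2 and IER5 were named as partners or namesakes of factors, and MAPK8 and MAPK3 outside this rule, after their values were seen. Alternatives were other pseudocounts, filters, scalings and call rules, eBayes without trend, a replicate block and each library left out. For the genes named from the lists these alternatives were added after the data had been seen.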

Additional observations from a re-analysis of the deposited data

How the results depend on the processing

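With each library left out in turn, 4 factors were called every time, as were 3 to 4 of the leucine zipper factors, 13 to 14 of the other immediate early genes, 5 of the upstream genes and 8 to 10 of the genes with AP-1 sites. Over all genes, 2038 to 2078 of the 13449 to 13485 tested were called in these fits. Where 1 FPKM had to be reached on average in each line, calls went down to 2 factors, JUND and IER3, 1 upstream gene and 6 genes with AP-1 sites. An absolute log2 fold change over 1.5 left 0 leucine zipper factors, 4 other immediate early genes and 3 upstream genes. No count over all genes is given here for these call rules, so the calls left cannot be set against a share of all genes. The upstream genes called fell to 1 with a pseudocount of 1 and to 3 after quantile normalization. The cause was not tested, beyond the weight of the pseudocount on scarce genes. FOS (0.27, adjusted p = 0.068 after quantile normalization) and JUN (0.06, adjusted p = 0.098 after median-of-ratios scaling) were the only factors to lose an adjusted p under 0.05, and none of the 9 reversed under any setting. Quantile normalization moved the median of all genes tested from 0.08 to -0.06 and the share of higher genes among those called from 71.5% to 52.8%. Among all genes tested, 997 were called with a pseudocount of 1, 1294 with a filter at a mean of 1 FPKM and 2008 after quantile normalization, against 2051. Of the other named genes, NAB2 (-0.07 after quantile normalization, adjusted p = 0.29) turned sign. NR4A2, BTG2, CSRNP1, BATF2, MMP13, SPP1 and CCL2 were not called with a pseudocount of 1, nor NR4A2, JDP2, MAPK11, RPS6KA5, MMP13 and SPP1 after quantile normalization. Scarce genes fall under filters: FOS and FOSB could not be fitted with a filter at 1 FPKM.

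Libraries with the same replicate number showed no clear joint deviation (correlations of 0.0873, -0.0396 and -0.106 over 11124 genes). Between unlike numbers the correlations ran from -0.154 to 0.183. With 3 libraries for each line, these values cannot tell whether libraries of the same number shared a culture or a batch. With a replicate block the log2 fold change of JUND was 2.26, and 4 factors and 2053 of all 13465 genes tested were called. Within replicate numbers, 3 pairs cannot give an exact p below 0.25.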
